A study of Arabidopsis thaliana with 10 samples.

Results

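GTR1 (AT3G47960) and GTR2 (AT5G62680) were followed in Arabidopsis thaliana roots across all 10 arrays and 5 groups of the study. They were chosen by name, with earlier results of these data known, as the probe sets that the array annotation lists for these genes. One probe set stands for each, 252377_at for GTR1 and 247440_at for GTR2, so the members are 2 of the 22197 probe sets tested. Both identifiers carry the plain suffix that the array's maker gives to a set designed for a single transcript, and each is listed with a single gene. No chromosome positions are given, because the sources used here do not state the genome build behind the array.

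Root samples of 5 kinds were compared, with 2 arrays in each. Wild-type Columbia plants (Col) and an sdi1sdi2 double knockout (KO, lines 1 and 4) grew on agar with 1500 µM sulfate (+S) or 15 µM sulfate (-S). Plants that overexpress SDI1 (OX, lines 6 and 12) grew at +S only. All plants were harvested after 10 days on agar medium with sucrose, and magnesium was held constant between the media with chloride. Every KO or OX array of a group is a different plant line, so the spread of these groups holds differences between lines. The promoter that drives SDI1 and the nature of the knockout alleles are not given in the sources used here. Nor do the labels say whether the Col arrays came from separate cultures, so the p-values may partly measure technical spread.

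Glucosinolates are sulfur-rich defence compounds of the cabbage order, made from amino acids and stored in vacuoles. GTR1 and GTR2 are plasma membrane proteins that carry intact glucosinolates into cells together with protons. They belong to the NPF family, whose members transport nitrate, peptides, hormones or other solutes, and the RefSeq gene table also names them NPF2.10 and NPF2.11. Plants without both importers fail to load glucosinolates into seeds, and the pair sets how these compounds are shared between root and shoot. SDI1 and SDI2 are genes induced by sulfur deficiency whose products lower glucosinolate synthesis.

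Levels are log2 of the authors' normalized values, group values are mean ± SD with n = 2, and changes are log2 fold changes ± SE of a limma fit over all 10 arrays. A change was called at a Benjamini-Hochberg adjusted p below 0.05 over the 22197 probe sets. Arrays of a group correlated at 0.990 to 0.996. AT1G04770, taken here as SDI2 although the annotation gives only its locus, read 1.57 to 1.83 in Col +S, 5.47 and 5.65 in Col -S, -1.52 to 0.31 over the 4 KO arrays and 1.52 and 1.86 in OX. Both KO line 4 arrays were under their background level for it and both line 1 arrays above theirs. SDI1 has no listed probe set and was not analysed here, so the overexpression itself was not checked by name. The background level of an array is the 0.95 quantile of its Bacillus control probe sets. GTR1 and GTR2 lay above it on every array, by 1.38 to 4.09 and by 2.52 to 4.71 respectively.

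GTR1 read 1.02 and 1.30 in Col +S, 3.66 and 3.34 in Col -S, 2.25 and 1.71 in KO +S (lines 1 and 4), 3.51 and 3.58 in KO -S (lines 1 and 4), and 1.98 and 1.85 in OX (lines 6 and 12). All 4 low-sulfate arrays stood above all 6 full-sulfate arrays. Within the full-sulfate arrays, both of Col were lower than the 4 of KO and OX. The group means were 1.16 ± 0.20 in Col +S, 1.91 ± 0.10 in OX, 1.98 ± 0.38 in KO +S, 3.50 ± 0.23 in Col -S and 3.55 ± 0.05 in KO -S. In this order only the step from KO +S to Col -S, of 1.52, was called between neighbours (limma adjusted p = 0.0014), in a comparison that called 9.1% of all probe sets. OX and KO +S overlapped, as did Col -S and KO -S.

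GTR2 followed another order. It read 3.92 and 4.04 in Col +S, 3.23 and 2.89 in Col -S, 4.20 and 4.17 in KO +S (lines 1 and 4), 4.07 and 3.87 in KO -S (lines 1 and 4), and 3.39 and 3.67 in OX (lines 6 and 12). The 2 Col -S arrays were the lowest of the 10, and the 2 OX arrays came next. The group means rose from 3.06 ± 0.24 in Col -S through 3.53 ± 0.19 in OX, 3.97 ± 0.14 in KO -S and 3.98 ± 0.09 in Col +S to 4.19 ± 0.02 in KO +S. No step between neighbours in this order was called, with limma adjusted p-values of 0.092, 0.10, 0.98 and 1.0 from the lowest step up. The same 4 comparisons called 8.38%, 8.83%, 8.61% and 0.0225% of all probe sets.

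**Figure D1:**
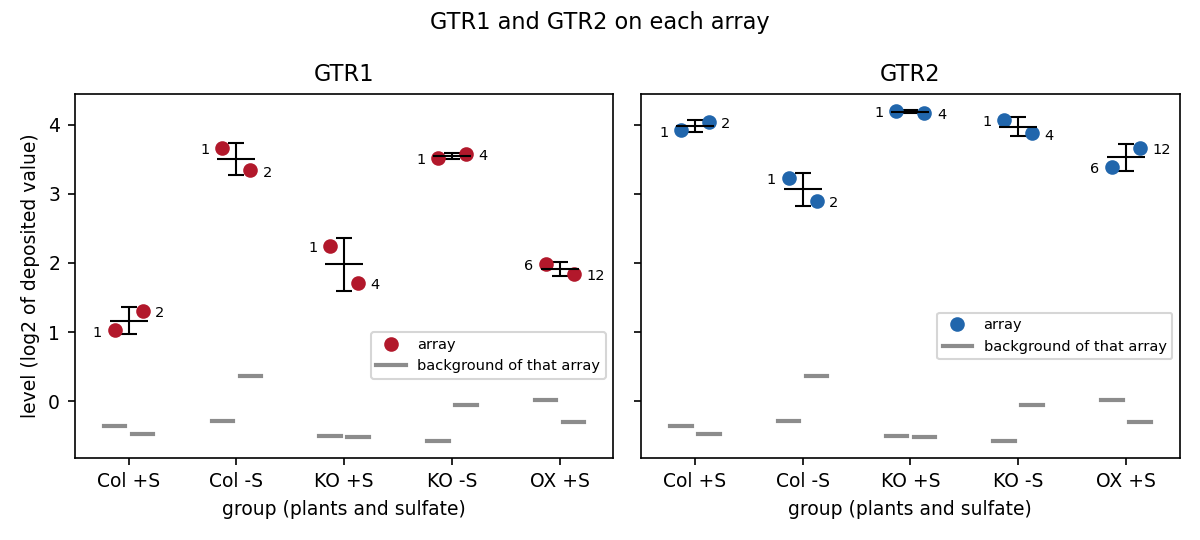
Level of GTR1 (left) and GTR2 (right) on each array, as log2 of the deposited value, by group. Points are arrays with their label or line number, black marks are the group mean ± SD (n = 2), and grey bars are the background level of each array. GTR1 is high on the 4 low-sulfate arrays, at 3.34 to 3.66, while GTR2 is lowest on the 2 Col -S arrays, at 2.89 and 3.23.

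The first comparison asked how the importers respond to low sulfate in the wild type. GTR1 rose by 2.34 ± 0.19, a 5.06-fold rise (limma adjusted p = 0.00013), and GTR2 fell by 0.91 ± 0.15, a 1.89-fold fall (limma adjusted p = 0.0053). Both members were therefore called, 1 higher and 1 lower, against 9.44% of all probe sets called in either direction, 4.44% higher and 5% lower. Only 31 probe sets rose by more than GTR1, which ranked 32 among 22197, and GTR2 ranked 309 among the falls. Between arrays of the same label number, GTR1 was higher at -S by 2.64 and 2.03, and GTR2 differed by -0.68 and -1.15. The number 1 and 2 arrays of Col share only a label.

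In the double knockout GTR1 rose as well. It went from 1.98 ± 0.38 to 3.55 ± 0.05, a rise of 1.57 ± 0.19 or 2.96-fold (limma adjusted p = 0.0014). The rise was 1.26 in line 1 and 1.87 in line 4, so it was seen in both lines. GTR2 stood at -0.22 ± 0.15 (95% interval -0.55 to 0.11, limma adjusted p = 0.51), with -0.14 in line 1 and -0.30 in line 4. One of 2 members was called, against 6.42% of all probe sets (2.92% higher and 3.5% lower).

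Whether the response differed between the genotypes was tested by the interaction of KO and sulfate. For GTR1 the change in KO was smaller than that in Col by 0.77 ± 0.27 on the log2 scale (95% interval of the KO minus Col difference -1.38 to -0.17, limma unadjusted p = 0.018, adjusted p = 0.37). For GTR2 the KO minus Col difference was 0.70 ± 0.21 (95% interval 0.23 to 1.16, limma unadjusted p = 0.0082, adjusted p = 0.26). Neither was called, in a test that called 0.748% of probe sets. The fall of GTR2 was thus called in Col and not in KO, but a difference between the 2 genotypes was not shown across the array.

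The importers were also set against each other within each array, which leaves the scale of the array out. GTR1 minus GTR2, in log2, was -2.82 ± 0.11 in Col +S, 0.44 ± 0.01 in Col -S, -1.62 ± 0.29 in OX, -2.21 ± 0.36 in KO +S and -0.42 ± 0.18 in KO -S. Only the change of this quantity between groups has a meaning, because levels of different probe sets cannot be compared. Over the Col and KO arrays it was higher by 2.52 at -S, with all 4 low-sulfate arrays above all 4 full-sulfate arrays. The exact two-sided permutation test gave p = 0.029, the smallest value that 4 against 4 arrays allow when they are exchanged freely. Exchanging arrays only within each genotype gave an exact p = 0.056, and also keeping the KO arrays within their line gave p = 0.083. These are the smallest values that such restricted permutations can give, so neither can fall below 0.05. All these permutations use the same values as the changes above, so they add no separate support. The change was 3.25 in Col and 1.78 in KO.

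At full sulfate the knockout was compared with the wild type. GTR1 stood higher in KO by 0.82 ± 0.19, a ratio of 1.76 (limma unadjusted p = 0.0020, adjusted p = 0.36). GTR2 stood at 0.21 ± 0.15 (limma adjusted p = 1.0). No member was called, against 0.0225% of all probe sets.

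At low sulfate GTR2 was higher in KO than in Col by 0.90 ± 0.15, a ratio of 1.87 (limma adjusted p = 0.013). GTR1 differed by 0.05 ± 0.19, with overlapping arrays and a 95% interval from -0.38 to 0.47 (limma adjusted p = 0.92). One of 2 members was called, against 2.85% of all probe sets (1.73% higher and 1.12% lower). The call of GTR2 was lost without Col -S 2 (0.73, limma adjusted p = 0.085) or without KO -S 1 (0.81, limma adjusted p = 0.0996). It was also lost with a block for the shared label number (limma adjusted p = 0.082) and with only the arrays of the groups compared (limma adjusted p = 0.11).

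SDI1 overexpression at full sulfate was compared with Col, KO and starved Col in turn. Against Col +S, GTR1 stood higher in OX by 0.75 ± 0.19 (limma unadjusted p = 0.0033, adjusted p = 0.16) and GTR2 lower, at -0.45 ± 0.15 (limma unadjusted p = 0.013, adjusted p = 0.32). No member was called, against 0.649% of all probe sets. This comparison and that of KO with Col at +S share the 2 Col +S arrays, so the higher GTR1 level in both rests on the same controls. Set directly against KO at +S, OX stood at -0.07 ± 0.19 for GTR1, with overlapping arrays (limma adjusted p = 0.92). GTR2 stood at -0.66 ± 0.15 (limma unadjusted p = 0.0015, adjusted p = 0.18), again without a call, against 0.383%.

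Against Col -S, OX was lower in GTR1 by 3.01-fold (-1.59 ± 0.19, limma adjusted p = 0.0015). For GTR2 it stood at 0.46 ± 0.15 (limma adjusted p = 0.092). One of 2 members was called there, against 8.38% of all probe sets. GTR1 in OX was thus far from its level in starved wild-type roots, while for GTR2 the difference was not called. With quantile normalization that GTR2 difference was called, at 0.48 (limma adjusted p = 0.048).

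**Figure D2:**
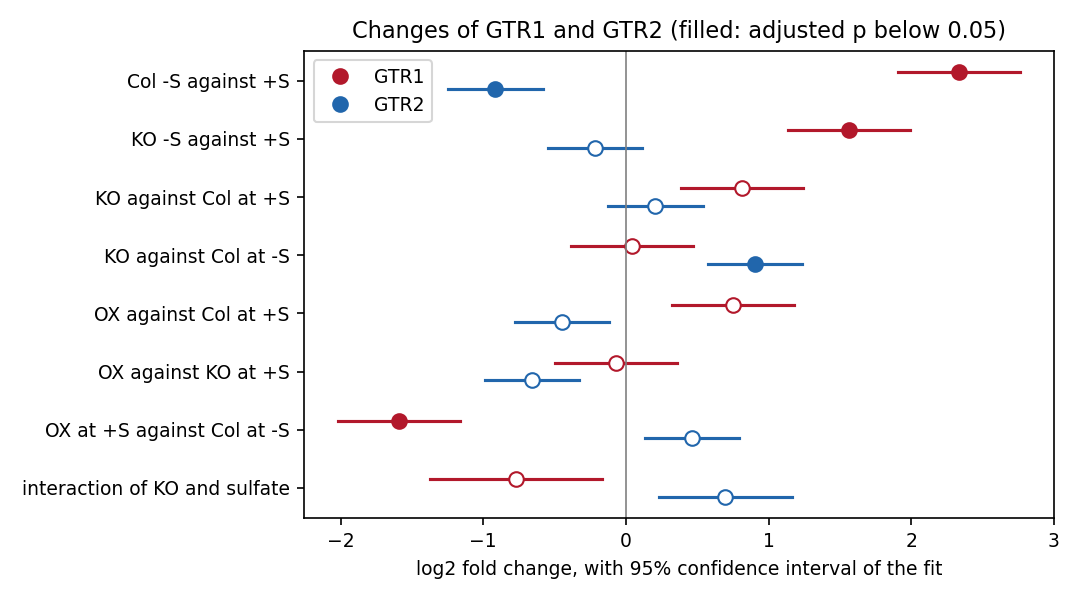
Log2 fold changes of GTR1 (red) and GTR2 (blue) in 8 comparisons, with 95% confidence intervals of the limma fit that are not adjusted for the number of probe sets. Filled points passed an adjusted p below 0.05: GTR1 in both sulfate responses and in OX against Col -S, and GTR2 in the Col response and in KO against Col at -S.

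The array also measured other genes of glucosinolate metabolism, which gives the importers a setting. On the list of glucosinolate synthesis, 6 of 30 genes were measured. In Col at -S 5 of them fell and none rose, and in KO at -S the same 5 rose, where 5% of all probe sets fell in Col and 2.92% rose in KO. The list median was -2.18 in Col and 1.28 in KO, against 0.02 and 0.00 over all probe sets. The 5 were BCAT4 (an aminotransferase of methionine chain elongation), the glutathione transferase GSTU20, the glucosyltransferase UGT74B1, AT2G31790 and AT2G25450, while AOP3 was under the background level on all arrays.

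Like GTR2, these 5 genes were lowest in Col -S and OX among the 5 groups. Unlike GTR2, they were highest in KO -S. UGT74B1 came nearest to GTR2 in size, with 3.54 ± 0.07 in Col +S, 2.81 ± 0.16 in Col -S, 3.17 ± 0.23 in OX, 3.92 ± 0.07 in KO +S and 4.88 ± 0.06 in KO -S. Its change at -S was -0.73 ± 0.13 in Col (limma adjusted p = 0.0098) and 0.96 ± 0.13 in KO (limma adjusted p = 0.0031), and the Col call was lost without Col -S 2 or Col +S 2. In OX against Col +S, 4 of the 6 measured synthesis genes were lower by the test, against 0.405% of all probe sets, and UGT74B1 stood at -0.37.

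On the list of glucosinolate breakdown, 2 of 12 genes were measured. BGLU28, a beta-glucosidase induced by sulfur shortage, read 8.10 ± 0.03 in Col -S and 8.33 ± 0.07 in KO -S and lay under the background level in the 3 full-sulfate groups. It rose at least 365-fold in Col and at least 457-fold in KO, lower bounds taken against the background level. GTR1 shares its direction at low sulfate in both genotypes, but BGLU28 gave no level to rank among the full-sulfate groups. PYK10, the beta-glucosidase of root endoplasmic reticulum bodies, stood at -0.02 in Col and -0.34 in KO and was not called in any of the 8 comparisons. Of the list of regulators, MYC3 and MYC4, transcription factors of jasmonate signalling, were the 2 of 9 genes measured. Neither was called in any of the 8 comparisons. None of the 6 other glucosinolate transport genes and none of the 7 sulfate transporters listed had a probe set named here.

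**Figure D3:**
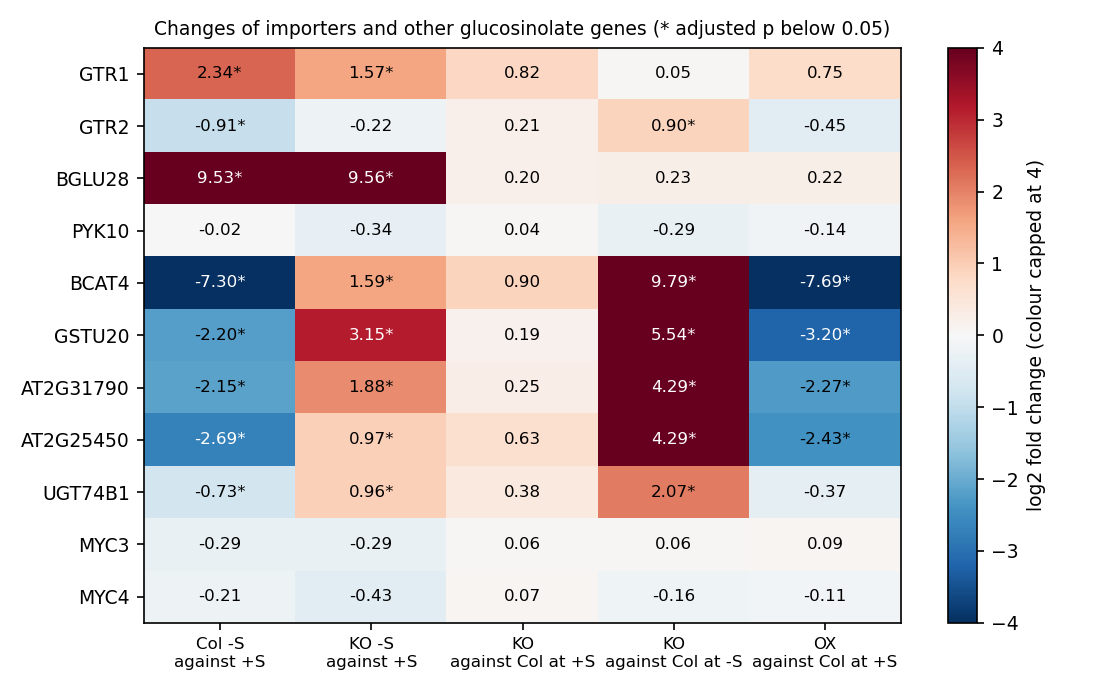
Log2 fold changes of GTR1, GTR2 and the other measured glucosinolate genes in 5 comparisons, from the limma fit, with stars at an adjusted p below 0.05 and the colour capped at 4. The fitted values of BGLU28 and BCAT4 that involve a group under the background level are not measured sizes. GTR2 shares with the synthesis genes a fall in Col at -S (-0.91) and a higher level in KO than in Col at -S (0.90). Its fall is smaller than theirs except for that of UGT74B1 (-0.73), and its difference between KO and Col is smaller than all of theirs.

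The rest of the NPF family was examined for the same changes. Of 51 other NPF genes, 32 were measured and 18 of these lay above background on both arrays of some group. In Col at -S, 2 of the 32 rose and 4 fell, against 4.44% and 5% of all probe sets, with a list median of 0.12 against 0.02 over all probe sets. In KO, 2 rose and 2 fell, against 2.92% and 3.5%, with a median of -0.13 against 0.00. Between the genotypes at -S, 1 of the 32 was called higher in KO than in Col and 3 lower, against 1.73% and 1.12%.

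AT3G45700, of the same NPF2 subfamily as the importers, had the largest fall of these in Col. From low to high it read 2.37 ± 0.11 in Col -S, 3.21 ± 0.23 in OX, 3.59 ± 0.02 in KO -S, 4.31 ± 0.07 in Col +S and 4.32 ± 0.04 in KO +S, the same order of groups as GTR2. Its step from Col +S to KO +S is smaller than the SD of either group. The order was shared by 98 of 8249 other named probe sets. AT3G45700 fell by 1.94 ± 0.12 in Col (limma adjusted p = 3.2e-05) and by 0.74 ± 0.12 in KO (limma adjusted p = 0.0083), and for this gene the difference between the genotypes was called (1.20 ± 0.17, limma adjusted p = 0.018). It was also lower in OX than in Col +S by the test (-1.10 ± 0.12, limma adjusted p = 0.0055). At -S it was called higher in KO than in Col (3.59 against 2.37, limma adjusted p = 0.00095), as GTR2 was. Leaving out 1 array in turn kept 2 calls of AT3G45700 in all 10 fits, its fall in Col and its difference between KO and Col at -S. The call of its fall in KO was lost in 3 of them (without KO -S 4 or either KO +S array). Its call in OX against Col +S was lost in 2 (without either Col +S array). The call of the genotype difference was lost in 6 (without Col -S 1 or either Col +S, either KO -S or KO +S 1), and also with the replicate block.

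Its neighbours AT3G45680 and AT3G45710 of the same subfamily were not called in the sulfate response of either genotype. Both were lower in KO than in Col at -S, at -0.69 ± 0.12 and -0.49 ± 0.09 (limma adjusted p = 0.018 and 0.029), but the calls were lost in 3 and 8 of the 10 fits without 1 array. Both calls were also lost with array weights, with the replicate block and with spike-in calibration. Whether probe sets of these related neighbouring genes bind each other's transcripts was not tested. The 4 further measured members of the subfamily, AT3G45690, AT3G45720, AT5G28470 and AT1G69860, did not lie above background on both arrays of any group. NPF2.9, the closest relative with a reported role in glucosinolate import, had no probe set named here.

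Outside this subfamily, NPF6.4 rose in Col (1.02 ± 0.13) and in KO (1.36 ± 0.13), from under background at +S (limma adjusted p = 0.0017 and 0.00036). Against the background level the rise was at least 1.84-fold in KO and at least 1.54-fold in Col, where only 1 of the 2 -S arrays was above background. NPF3.1, reported to carry gibberellins, rose in Col by 0.63 ± 0.10 (limma adjusted p = 0.0044), a call lost with spike-in calibration. AT5G14940 and AT3G01350 fell in Col, by 0.66 and 0.54 (limma adjusted p = 0.046 and 0.021). NPF4.3 fell in Col to under background on both -S arrays, at least 1.21-fold (limma adjusted p = 0.040). These 3 calls were lost in 8, 2 and 6 of the 10 fits without 1 array. Those of AT5G14940 and NPF4.3 were also lost with spike-in calibration, that of NPF4.3 with array weights, and that of AT3G01350 with the replicate block. In KO, AT2G40460 rose by 1.11 ± 0.16 (limma adjusted p = 0.0035), with 1 of the 2 +S arrays above background. NPF4.3 fell in KO by 0.92 ± 0.15 (limma adjusted p = 0.0083), with 1 of the 2 -S arrays above background. That call was lost in 2 of the 10 fits, without KO -S 4 or KO +S 1.

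**Figure D4:**
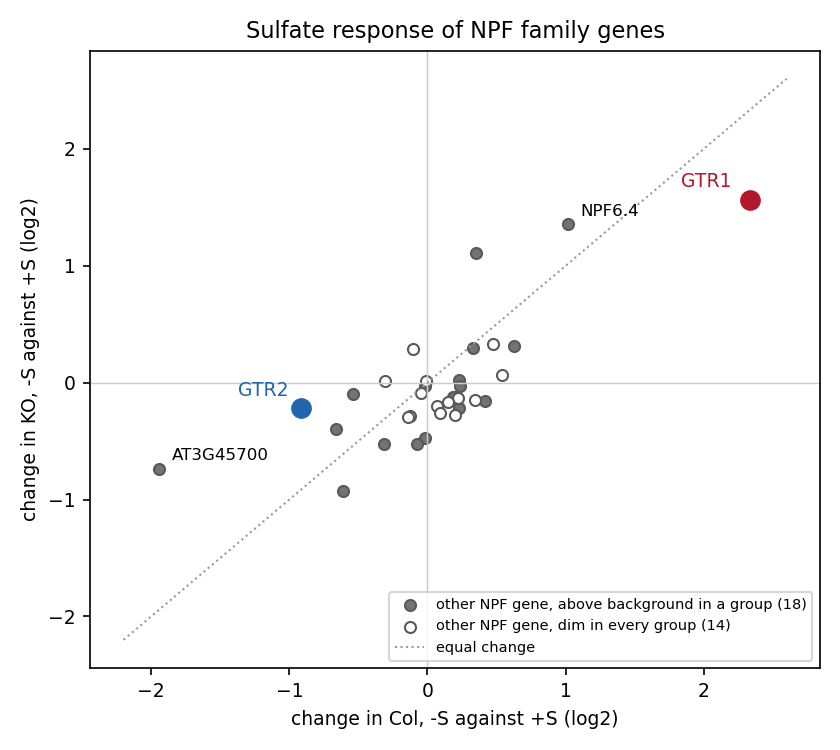
Log2 change at -S against +S in Col (horizontal axis) and in KO (vertical axis) for GTR1, GTR2 and the 32 other measured NPF genes. Filled grey points are the 18 genes above background on both arrays of some group, open points the 14 others, and the dotted line marks equal change. GTR1 lies at 2.34 and 1.57, to the right of all others, and GTR2 lies at -0.91 and -0.22, between AT3G45700 and most of the family.

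Named genes with the most similar profiles were found by the root mean square difference over the 10 arrays after each profile was centred on its own mean. In all, 8249 other probe sets with a single listed gene and a level above background in some group were compared. For GTR1, whose own profile varied by 0.96, the nearest was CHX16, named as a cation/proton exchanger, at 0.28. It was followed by SFP1, a gene named for the sugar porter family, at 0.35, FMO (AT1G12200) at 0.36, the beta-glucosidase gene BGLU15 at 0.37 and AT2G41380 at 0.37. The means of AT2G41380 lay under the background level in every full-sulfate group. CHX16 stood at 1.57 in Col +S, 2.06 in OX, 2.26 in KO +S, 4.07 in Col -S and 4.37 in KO -S, the same order of groups as GTR1. That order was shared by 115 of the 8249 probe sets.

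For GTR2, whose profile varied by 0.42, the nearest were AT4G30660 at 0.10, AT2G03470 at 0.12, and AT1G17860, AT3G50620 and AT3G56360 at 0.16 each. AT4G30660 stood at 2.96 in Col -S, 3.58 in OX and 3.93 in Col +S, and higher in KO, at 4.09 at -S and 4.12 at +S. The profiles of GTR1 and GTR2 differed from each other by 1.19.

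**Figure D5:**
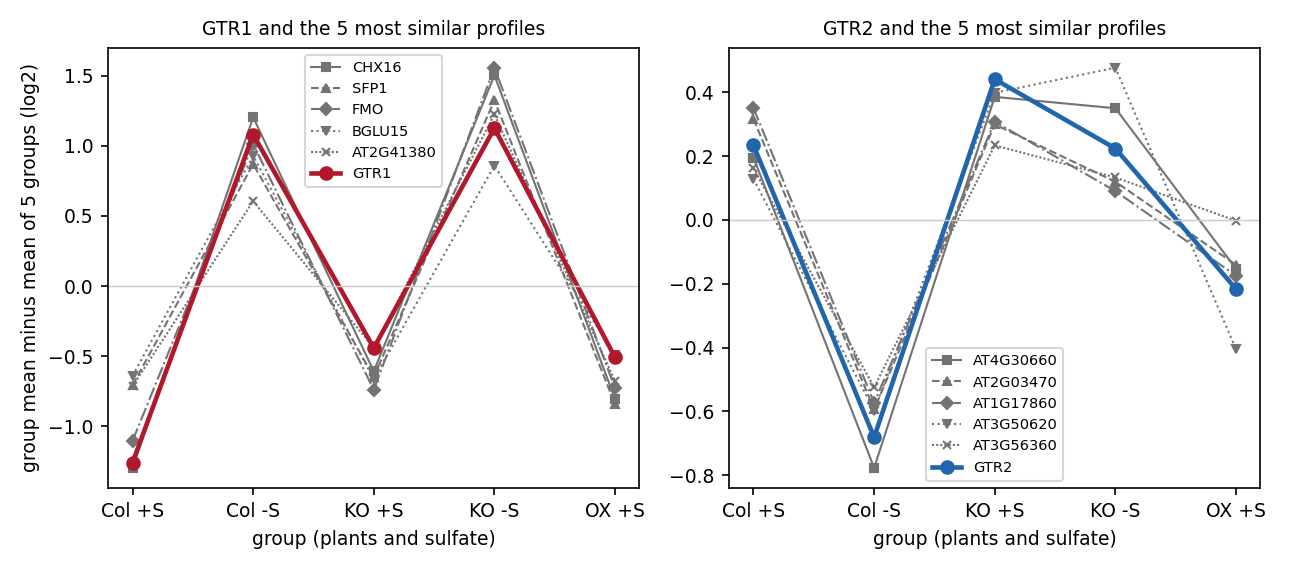
Group means of GTR1 (left, red) and GTR2 (right, blue) with the 5 named genes of the most similar profile (grey), each minus its own mean over the 5 groups, in log2. The vertical scales differ. The GTR1 set is high in both low-sulfate groups, and the GTR2 set is lowest in Col -S. The genes were picked for likeness over these same arrays, so the shared pattern follows from the choice.

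Some markers of shoot and root tissue moved with sulfate as well. Of all probe sets, 5% were called lower and 4.44% higher at -S in Col. In KO these shares were 3.5% and 2.92%. Of the shoot photosynthesis markers, 3 of 7 were measured (RCA, LHCB4.1 and PSAE-1), and all 3 fell in Col at -S and LHCB4.1 in KO. Their summed level on the linear scale was 17.6 to 19.6 in Col +S, 10.6 to 11.3 in Col -S, 14.8 to 15.0 in KO +S, 9.52 to 9.66 in KO -S and 14.4 to 16.5 in OX. Of the root markers, 3 of 10 were measured (EXPA7, EXPA18 and SGN3), all above background on every array. EXPA7 and EXPA18, expansins of root hairs, rose in Col at -S by 0.76 and 0.77. SGN3 was not called there, at 2.19 ± 0.06 in Col +S and 2.48 ± 0.07 in Col -S. No root marker was called in KO. Of the 10 fits without 1 array, the Col calls of EXPA7, EXPA18, RCA, PSAE-1 and LHCB4.1 were lost in 2, 4, 2, 4 and 1, and the KO call of LHCB4.1 in 3. The Col calls of EXPA7 and RCA were also lost with the replicate block. The summed root level was 22.1 to 23.8 in Col +S, 35.6 to 38.0 in Col -S, 21.6 to 21.8 in KO +S, 25.5 to 27.6 in KO -S and 21.7 to 27.3 in OX. The part of these shifts in the changes of GTR1 and GTR2 was not tested. The vascular markers SUC2 and APL had no probe set named here, and in whole roots fewer cells of a type and less RNA per cell cannot be told apart.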

How the data were processed

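The authors deposited log10 expression values of 10 ATH1 arrays, with 1 value for each probe set and array. Background correction, summarization and normalization are not given in the sources used here. Per the labels, root RNA was turned into biotin-labelled cDNA. The values themselves gave the base of the logarithm: spiked bacterial controls at nominal 1.5 to 100 pM spanned 2.06 units, against 1.82 expected in log10 and 6.06 in log2. The spike slope was 1.06 to 1.14, so folds may be somewhat overstated.

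Values were converted to log2, and no normalization was added in the fit reported. Of 22810 probe sets, 554 had no value and 64 were controls, with 5 in both sets, which left 22197. The annotation lists a single gene for 13513 probe sets, several for 503 and none for 8794. Symbols came from RefSeq gene names of TAIR10.1, which matched 13436. No array column was left out.

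A mean for each of 5 groups was fitted over all arrays with limma 3.58.1 in R 4.3.3 (lmFit, eBayes, 5 residual and 3.81 prior degrees of freedom), after tests on simulated data. Groups came from the array titles. The members and the 10 gene lists (136 genes, 51 measured) were chosen with earlier results of these data known. Named were the importers, called list members (up to 6 a list), all measured genes of the NPF2 subfamily and the 5 most similar profiles per importer. KO arrays of the same line are paired by it across the sulfate levels, with deviations that correlated at 0.07. Col arrays share only a number, at -0.14. The number of arrays limits the precision.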

Additional observations from a re-analysis of the deposited data

Results flagged for a closer look

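The sulfate response differed between KO and Col, by the limma interaction test, in 6 of the genes described, and in neither importer. That test called 0.748% of all probe sets. List genes were mostly described because they were called in some comparison, so the count is not a share. All 6 fell in Col, and the KO minus Col difference of the changes is given. It was 1.20 for AT3G45700 (limma adjusted p = 0.018), which also fell in KO, but the call was lost in 6 of 10 fits without 1 array. It was 8.89 for BCAT4, a fitted value that includes a group under the background level, 5.35 for GSTU20, 4.03 for AT2G31790, 3.66 for AT2G25450 and 1.69 for UGT74B1, with limma adjusted p-values between 2.5e-06 and 0.0038 (the call of UGT74B1 was lost with the replicate block). These 5 rose in KO. Groups of 2 arrays are too small for a check of single outlying arrays.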

How the results depend on the processing

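Of 128 importer values under 8 other settings, 125 kept their direction and their side of the threshold, as did 155 of 160 without 1 array. Under the other settings, GTR2 in KO against Col at -S was an exception. It was not called with the replicate block (limma adjusted p = 0.082) or with only the arrays compared (limma adjusted p = 0.11), at 0.90 in both cases. GTR2 in OX against Col -S was called after quantile normalization, at 0.48. Spike-in calibration, chosen after the data were seen, gave 2.05 for the Col rise of GTR1. Without 1 array, the Col changes ran from 2.18 to 2.50 (GTR1) and -1.09 to -0.74 (GTR2), and the KO changes from 1.30 to 1.84 and -0.31 to -0.12. KO against Col ran from 0.55 to 1.09 and 0.14 to 0.27 at +S, and from -0.12 to 0.21 and 0.73 to 1.08 at -S. At -S, GTR1 was reversed without Col -S 2 (-0.12) with no call. The call of GTR2 at -S was lost without Col -S 2 (0.73) or without KO -S 1 (0.81). OX ran from 0.61 to 0.89 and -0.59 to -0.31 against Col, from -0.34 to 0.20 and -0.79 to -0.52 against KO (GTR1 reversed without OX 12, 0.00097, or KO +S 1, 0.20) and from -1.75 to -1.43 and 0.29 to 0.63 against Col -S. The interaction ran from -1.04 to -0.50 and 0.53 to 0.87, and the within-array change from 2.37 to 2.70. Restricted permutations, also chosen after the data were seen, left that change at 2.52 with exact p = 0.056 and 0.083.

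Counts of called probe sets moved more than these values. With the replicate block they were 1066 for the Col response (2095 in the fit reported), 726 for KO (1426), 0 for KO against Col at +S (5, with 1167 at an unadjusted limma p under 0.05), 201 at -S (632), 43 for OX against Col (144), 39 against KO (85), 802 against Col -S (1859) and 48 for the interaction (166). The block changed no other importer call. With only the arrays compared they were 986 (Col), 180 (KO against Col at -S), 71, 43 and 641 (OX against Col, KO and Col -S). Array weights gave 69 and 351 (KO against Col at +S and -S) and 935 (OX against Col -S). An intensity trend gave 31 (KO against Col at +S), 260 and 137 (OX against Col and KO) and 251 (interaction). Spike-in calibration gave 1043 (Col), 901 (KO), 11 and 381 (KO against Col at +S and -S) and 766 (OX against Col -S). Without the probe sets under the 0.25 quantile of mean level, KO against Col at +S gave 23 and OX against Col 267, and quantile normalization gave 8 for the former. Without 1 array the counts ran from 897 to 2077 (Col), 564 to 1457 (KO), 4 to 59 and 252 to 777 (KO against Col at +S and -S), 36 to 131, 41 to 120 and 967 to 1645 (OX against Col, KO and Col -S) and 84 to 205 (interaction). An arm left with 1 array is assumed to vary like the other groups. The cause of these shifts was not tested.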

Other observations

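The order of the 5 group means seen for GTR1 (Col +S, OX, KO +S, Col -S, KO -S from low to high) was shared by 115 of 8249 other named probe sets above background in some group. That of GTR2 (Col -S, OX, KO -S, Col +S, KO +S) was shared by 98. Several steps in both orders are smaller than the spread between arrays.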
